A study of Mus musculus with 8 samples.

Results

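A group of 9 genes that handle carbon dioxide, water, potassium ions or 2,3-bisphosphoglycerate were followed in red cell precursors of the mouse yolk sac. They were the carbonic anhydrases Car1, Car2, Car3 and Car4, the enzyme Bpgm, the potassium channel Kcnn4 and the aquaporins Aqp1, Aqp3 and Aqp8. Every probe set that the platform annotation gives to 1 of these 9 genes alone was taken, which gave 16 of 22626 probe sets on the array, for 9 of 12393 genes. That rule uses gene names only, but the genes were chosen with earlier results of these data known.

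Primitive erythroid precursors were compared with epithelial cells, each lifted by laser from frozen sections of yolk sacs of FVB/N mice at embryonic day 9.5. Each of the 2 groups had 4 samples, and each sample was hybridised to 1 Affymetrix 430A 2.0 array. The 4 erythroid and 4 epithelial samples formed 4 pairs, both members of a pair coming from the same slides and from 2 to 4 yolk sacs of 2 litters. The labels give no treatment and no altered allele for either group. An erythroid cell took 2 to 3 laser pulses and an epithelial cell took 1. Between 10 and 39 ng of RNA was amplified over 2 cycles. Each sample pools many cells of several embryos, so fewer cells of a type and less RNA per cell cannot be told apart here.

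Carbonic anhydrases interconvert carbon dioxide and bicarbonate. In red cells they work beside the anion exchanger Slc4a1, which swaps bicarbonate for chloride, so that blood can carry carbon dioxide from tissues as bicarbonate. Bpgm makes 2,3-bisphosphoglycerate, a side product of glycolysis that lowers the oxygen affinity of adult haemoglobin. Kcnn4 is the Gardos channel, a potassium channel opened by calcium through which red cells lose potassium and water. Aquaporins are membrane pores for water, and some of them also pass glycerol or other small molecules. The yolk sac epithelium of this stage, the visceral endoderm, takes up nutrients and makes serum proteins.

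Median signals of the arrays ran from 81.5 to 127, and background levels from 55.1 to 133. The background level is the 95th percentile of 117 probe sets for genes such as odorant receptors. The Gapdh control's 3′ over 5′ ratio, which is high where RNA is shortened, ran from 7.0 to 17.4 in pairs 3 and 4, against 38.7 to 44.4 in pairs 1 and 2. For the Actb control it was 7.75 to 13.5, against 46.5 to 131. Pairs 3 and 4 are therefore also given apart from pairs 1 and 2 below.

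Marker genes of the labelled cell types were read, with the markers chosen when earlier results of these data were known. Their counts are therefore no independent check of the labels. Among all genes tested, 6.02% rose and 8.87% fell in the erythroid captures. All 8 erythroid markers rose there, with a summed signal of 28813 to 55098 in erythroid and 5947 to 12922 in epithelial captures. Of 8 endoderm markers 7 fell, with sums of 39175 to 59505 and 63769 to 114551. Markers of each cell type were also measured in the other capture: 7 of the 8 erythroid markers lay above background on all 4 epithelial arrays, and 8 of 8 endoderm markers on all 4 erythroid arrays. Of 8 mesenchyme and mesothelium markers 6 rose, with sums of 28080 to 51401 in erythroid and 6660 to 25368 in epithelial captures. Of 6 megakaryocyte and platelet markers tested 3 rose, Pf4, Clec1b and Rab27b. Sums over the 7 with a probe set, tested or not, were 5257 to 18671 and 1733 to 2823. Of 5 endothelial markers tested only Tek rose. Sums over the 8 with a probe set were 974 to 2195 and 512 to 947. Pecam1 and Tie1 were above background on no array, on the probe set each was read from. Of 6 macrophage markers tested Fcgr3 fell and 0 rose. Sums over the 8 with a probe set were 1696 to 2511 and 1442 to 1885. Cd68 and C1qa were above background on no array, on the probe set each was read from. The part of these other cells in the results below was not tested.

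Of the 9 genes, 3 rose in the erythroid captures (Car2, Bpgm and Kcnn4), 1 fell (Car4), 2 were tested and not called (Aqp3 and Aqp8), and 3 were too dim to be tested (Car1, Car3 and Aqp1). Among all 7191 genes tested, 6.02% rose and 8.87% fell. By role, 1 of the 4 carbonic anhydrases rose and 1 fell, the mutase and the channel rose, and none of the 3 aquaporins was called. Probe sets below the median of an array on more than 4 of the 8 arrays were not tested. The test was limma with a term for the pair, and a call is an adjusted p under 0.05 over all 11449 probe sets tested. Of the 16 probe sets of the 9 genes, 9 passed that filter, and 5 of these rose and 2 fell, against 6.19% and 7.69% of all probe sets tested. The median change of the 6 genes tested was 0.97 on the log2 scale, beside -0.01 over all genes tested.

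The regions upstream of 3 of the genes called are shown because these genes moved in the same comparison, 2 of them upwards and 1 downwards. Each is the 250 bases before an annotated transcription start, from RefSeq on GRCm38.p6, and lies on the plus strand. The Kcnn4 window is chr7:24370013-24370262, the Bpgm window chr6:34476106-34476355 and the Car4 window chr11:84957504-84957753. The table of promoters used here held a window for 6 of the 9 genes, and none for Car2, the other gene called. Capitals mark CACCC or its reverse complement GGGTG, the core of the motif bound by Kruppel-like factors. The other motif searched was GATAA on both strands, 1 form of the motif bound by GATA factors. GATA followed by another base was not counted. No match overlapped another.
Kcnn4: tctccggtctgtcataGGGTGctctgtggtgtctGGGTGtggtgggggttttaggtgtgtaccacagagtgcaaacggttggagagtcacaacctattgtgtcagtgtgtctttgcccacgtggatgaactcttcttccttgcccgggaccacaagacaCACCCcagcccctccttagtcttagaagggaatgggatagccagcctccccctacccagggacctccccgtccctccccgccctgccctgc
Bpgm: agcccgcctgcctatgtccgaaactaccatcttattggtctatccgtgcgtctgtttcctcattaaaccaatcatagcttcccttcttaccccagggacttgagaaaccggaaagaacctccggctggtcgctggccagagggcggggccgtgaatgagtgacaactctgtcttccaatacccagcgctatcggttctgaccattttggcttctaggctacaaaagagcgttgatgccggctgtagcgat
Car4: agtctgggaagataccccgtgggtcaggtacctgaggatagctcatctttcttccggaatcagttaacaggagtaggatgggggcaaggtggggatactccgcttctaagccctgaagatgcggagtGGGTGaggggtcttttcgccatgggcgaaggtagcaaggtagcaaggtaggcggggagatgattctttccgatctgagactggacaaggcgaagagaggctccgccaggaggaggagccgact
CACCC was present 3 times in the Kcnn4 window, once in that of Car4 and not in that of Bpgm. It was in 5 of the 6 windows available and in 52.0% of all 32851 windows of this length. GATAA was in 0 of the 6 windows and in 22.6% of all windows. These are matches of letters only.

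Car2, the fast cytosolic carbonic anhydrase of red cells and many other tissues, was the carbonic anhydrase that rose. Its signal was 5644, 7892, 15802 and 9350 in the erythroid captures of pairs 1 to 4, and 2371, 2215, 2187 and 2462 in the epithelial captures. The groups did not overlap: the lowest erythroid capture, that of pair 1, was above the highest epithelial one, that of pair 4. Among all probe sets tested, 6.00% had erythroid captures wholly above epithelial ones. The epithelial captures lay close together, with a mean of 9672 ± 4361 in erythroid and 2309 ± 131 in epithelial captures (SD, n = 4 each). The change was 1.98 ± 0.22 on the log2 scale (SE, n = 4 pairs; 95% confidence interval 1.49 to 2.47), with a limma adjusted p of 0.00111. The array has 1 probe set for this gene here, so no second one bears on the value.

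**Figure D1:**
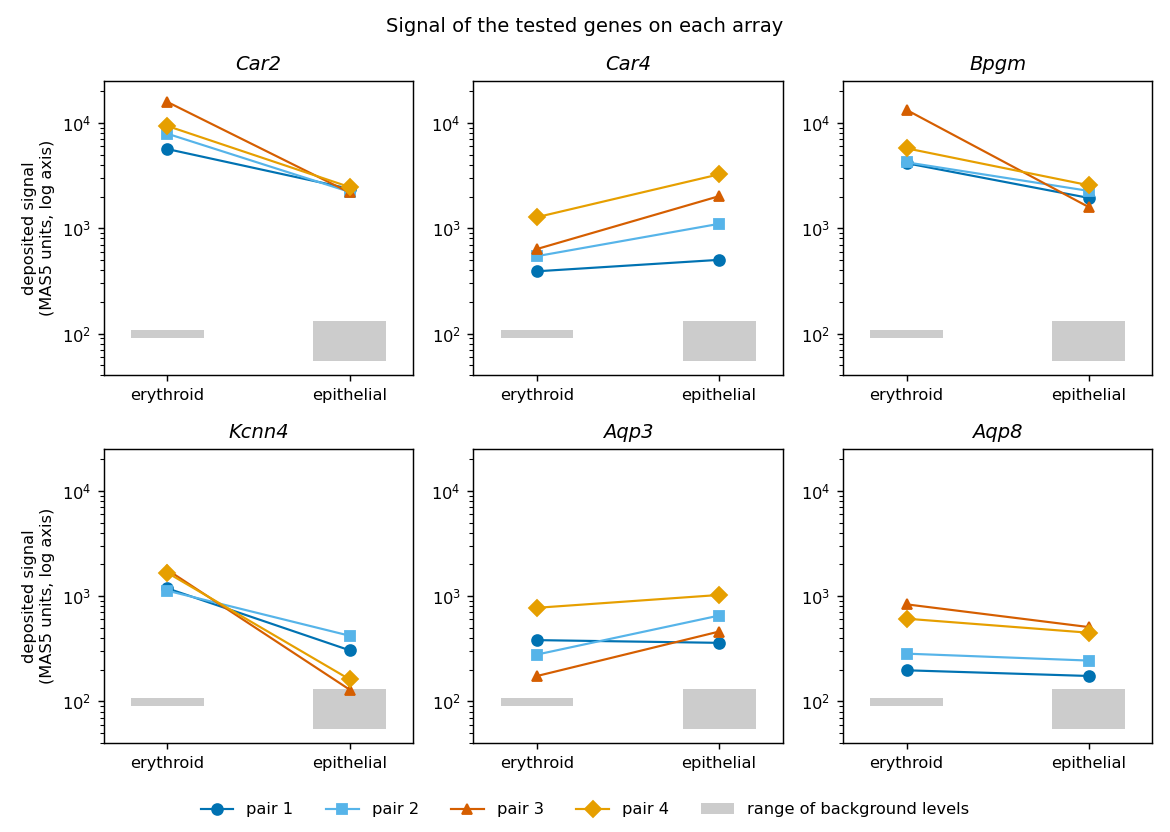
Deposited signal (MAS5 units, log axis) of the 6 tested genes, 1 point per array and a line for each of the 4 pairs, erythroid captures on the left of each panel; grey bands give the range of background levels in the group. Car2, Bpgm and Kcnn4 fall along every line towards the epithelial captures, and Car4 climbs along every line. For Car2, Bpgm and Kcnn4 the groups do not overlap, as for 6.00% of all probe sets tested with erythroid captures higher.

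Car1 and Car3 gave no level that could be tested. Car1, a cytosolic carbonic anhydrase abundant in adult red cells, had a signal of 28.9, 63.2, 25.6 and 90.0 in the erythroid and 73.5, 21.7, 20.4 and 7.99 in the epithelial captures. Only the erythroid capture of pair 4 reached the background level of its array, at 1.00 times that level. Car3, a carbonic anhydrase best known from muscle and fat, has 2 probe sets here, with signals of 5.87 to 96.4 in erythroid and 27.4 to 83.8 in epithelial captures. Across both, 1 of 16 values was above background, at 1.04 times the level. After normalisation Car1 was higher within 2 of the pairs and lower within 2. The 2 Car3 probe sets disagreed, one being higher in 3 of 4 pairs and the other lower in 4 of 4.

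Car4, a carbonic anhydrase held at the outer cell surface by a lipid anchor and known from capillary walls and from brush borders of kidney and gut, was the member that fell. On the probe set with the higher mean its signal was 390, 543, 635 and 1274 in the erythroid captures of pairs 1 to 4, against 501, 1101, 2016 and 3251 in the epithelial captures. The groups overlapped, but within each of the 4 pairs the erythroid capture was the lower one. The change was -1.11 ± 0.23 on the log2 scale (SE, n = 4 pairs; 95% confidence interval -1.62 to -0.59; limma adjusted p = 0.0117).

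The other Car4 probe set gave 96.7, 143, 184 and 871 in the erythroid captures, against 170, 225, 1571 and 2687 in the epithelial captures. The change there was -1.61 ± 0.37 (SE, n = 4 pairs; limma adjusted p = 0.0175), and its erythroid capture of pair 1 was not above background. On both probe sets the epithelial captures of pairs 3 and 4 were the brightest of all 8 arrays. The call of Car4 was lost without replicate 3 (-0.93, adjusted p = 0.0549), without replicate 4 (-1.03, adjusted p = 0.0808) and in pairs 1 and 2 alone (-0.70, adjusted p = 0.126). It was also lost without the pair term (adjusted p = 0.25) and without a variance trend (adjusted p = 0.0608), and its adjusted p spanned 2.16e-06 to 0.25 across the 17 alternatives.

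**Figure D2:**
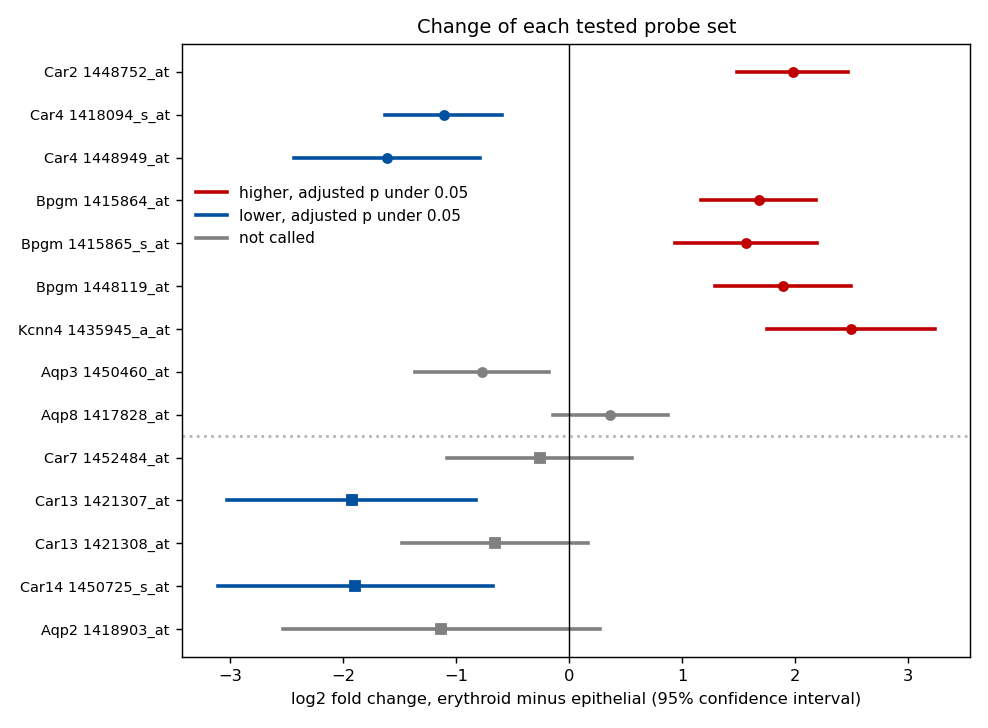
Log2 fold change, erythroid minus epithelial, with its 95% confidence interval for the 9 tested probe sets of the 9 genes (circles, above the dotted line) and for the tested probe sets of other carbonic anhydrases and aquaporins (squares). The intervals of Car2, Bpgm and Kcnn4 lie right of 0, and those of both Car4 probe sets left of it.

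Bpgm rose on all 3 of its probe sets. On the brightest the signal was 4142, 4225, 13274 and 5739 in the erythroid captures of pairs 1 to 4, against 1939, 2261, 1589 and 2560 in the epithelial captures. The second gave 818, 926, 3440 and 1609 in erythroid and 294, 362, 676 and 557 in epithelial captures. The third gave 529, 621, 1496 and 854 in erythroid and 195, 254, 216 and 150 in epithelial captures. On each of the 3 the erythroid captures lay wholly above the epithelial ones, as for 6.00% of all probe sets tested. The erythroid capture of pair 3 was the highest of all arrays on each. The changes were 1.57 ± 0.28, 1.68 ± 0.23 and 1.89 ± 0.27 on the log2 scale (SE, n = 4 pairs), with limma adjusted p of 0.00589, 0.00204 and 0.00249. The 3 confidence intervals overlapped, and the difference between the probe sets was not tested. The call on the brightest was lost without a variance trend (adjusted p = 0.0649, within 5.5e-14 to 0.0649 over 17 alternatives).

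Of 13 glycolytic and related genes tested, 1 rose and 0 fell, beside 6.02% and 8.87% of all genes tested, and their median was -0.18, beside -0.01. The one that rose was Hk1, the hexokinase that opens glycolysis in red cells, at 1.41 ± 0.39 (limma adjusted p = 0.0361) with an average of 703 for erythroid captures against 249 for epithelial ones. Its call was lost without replicate 3 (1.06, adjusted p = 0.151) and without replicate 4 (1.10, adjusted p = 0.186), and 4 of the other alternatives gave no call either, within 1.87e-08 to 0.483 over 16 alternatives. Pairs 3 and 4 gave 2.35, against 0.46 for pairs 1 and 2. Minpp1, a phosphatase that can also act on 2,3-bisphosphoglycerate, was at -0.55 ± 0.17 (adjusted p = 0.0518, within 0.0391 to 0.354 over 17 alternatives, of which 4 gave a call), and averaged 1894 for erythroid captures against 2834 for epithelial ones.

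Kcnn4 had the largest change of the 9 genes. Its signal was 1184, 1125, 1774 and 1664 in the erythroid captures of pairs 1 to 4, against 306, 421, 130 and 162 in the epithelial captures. The erythroid captures lay close together, and the lowest was above every epithelial capture, as for 6.00% of all probe sets tested. The change was 2.49 ± 0.33 on the log2 scale (SE, n = 4 pairs; 95% confidence interval 1.75 to 3.24), with a limma adjusted p of 0.0019 and averages of 1437 ± 330 for erythroid against 255 ± 135 for epithelial captures (SD, n = 4 each). A second Kcnn4 probe set did not pass the filter, with 5.12, 89.5, 243 and 256 in erythroid captures and 17.1 to 22.9 in epithelial captures. It was above background only in the erythroid captures of pairs 3 and 4, at up to 2.85 times the level. Of the related calcium-activated channels listed, Kcnn1, Kcnn2, Kcnn3 and Kcnma1, none passed the filter.

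The aquaporins showed no call. Aqp1, the water channel of adult red cells and of capillary walls, had a signal of 5.67, 6.74, 150 and 75.5 in the erythroid captures and 9.04, 87.5, 9.62 and 5.55 in the epithelial captures. Of these 8 values 1 was above background, the erythroid capture of pair 3 at 1.39 times the level, and the pairs split 2 to 2 in direction. Aqp1 thus had a signal above background in 1 of 4 erythroid and 0 of 4 epithelial captures, and it was not tested in the main fit.

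Aqp3, which passes water and glycerol and occurs in many epithelia, was at 382, 279, 174 and 775 in erythroid and 360, 654, 461 and 1026 in epithelial captures. The groups overlapped. After normalisation it was lower in 4 of 4 pairs, with a difference of -0.77 ± 0.27 (log2 scale; SE, n = 4 pairs; 95% confidence interval -1.36 to -0.17), which did not pass adjustment (limma adjusted p = 0.0824; unadjusted p = 0.0161). In pair 1 the difference was only -0.05. It passed without replicate 1 (-1.01, adjusted p = 0.042), in pairs 3 and 4 alone (-0.99, adjusted p = 0.0223) and with arrays centred on their medians (-0.91, adjusted p = 0.0368), and its adjusted p spanned 0.0223 to 0.363 across 17 alternatives. The other 2 Aqp3 probe sets were above background on 2 of 16 values.

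Aqp8, a water channel known from liver, pancreas and gut, was above background on all 8 arrays. It was at 197, 284, 835 and 610 in erythroid and 174, 244, 508 and 449 in epithelial captures, with overlapping groups. The difference was 0.37 ± 0.23 on the log2 scale (SE, n = 4 pairs; 95% confidence interval -0.14 to 0.88; limma adjusted p = 0.322). Both cell types were brighter in pairs 3 and 4 than in pairs 1 and 2, and this spread between pairs was wider than the difference between captures.

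**Figure D3:**
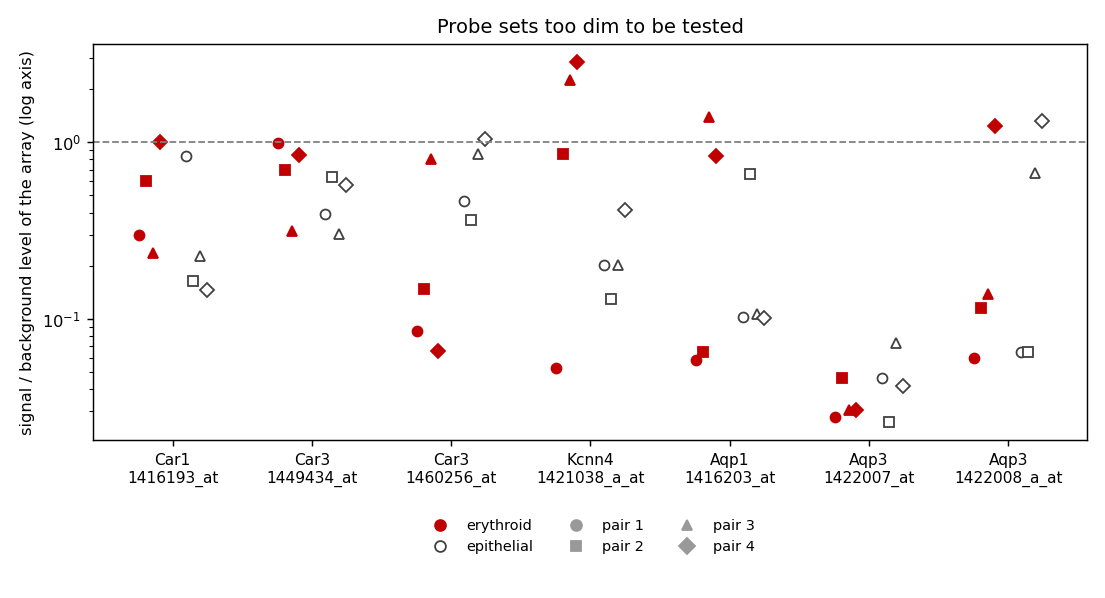
Signal of the 7 probe sets that were not tested, divided by the background level of the same array (log axis, dashed line at 1), erythroid captures filled and left of epithelial ones in each column. Of 56 values 7 lie above the line, and the highest is 2.85, for Kcnn4 in the erythroid capture of pair 4.

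The rise of Car2 and Kcnn4 differed in size between the pairs. The change of Car2 was 2.53 over pairs 3 and 4, against 1.42 over pairs 1 and 2, a difference of 1.11 ± 0.26 on the log2 scale (SE; limma adjusted p = 0.0364). For Kcnn4 it was 3.35, against 1.64, a difference of 1.71 ± 0.41 (SE; adjusted p = 0.0411), and this is a contrast for which 1.84% of all probe sets tested were called. Leaving out replicate 1, 2 or 3 ended both calls, with differences of 0.85, 1.32 and 0.95 for Car2 and 1.87, 1.59 and 1.44 for Kcnn4. Each fit without 1 replicate leaves 1 pair alone in a pair set, so its p-values are not given. The Car2 call was also lost with the deposited scaling (0.85, limma adjusted p = 0.256). It was lost too with arrays centred on their 75th percentiles (0.78, 0.422) or medians (0.49, 0.683), and Kcnn4 kept its call under each of these. Over all alternatives 8 of 13 gave no call for Car2 and 5 of 12 gave none for Kcnn4, at an adjusted p of up to 0.683 and 0.372.

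For the other tested genes this difference did not pass. Bpgm was at 2.17 over pairs 3 and 4, against 0.96 over pairs 1 and 2 (limma adjusted p = 0.11), Car4 at -1.53 and -0.69 (0.331), Aqp3 at -0.95 and -0.59 (0.814) and Aqp8 at 0.55 and 0.18 (0.796). The difference of Bpgm, 1.21, depended on the samples and probe sets used. With x, s and a probe sets set aside it was 0.61 (limma adjusted p = 0.56). It was 0.46 without replicate 3 and 2.07 without replicate 4, again with 1 pair alone in a pair set and no p-value given. The marker lists, whose difference between pair sets was not tested, had a median change over pairs 3 and 4, against pairs 1 and 2, of 3.27 against 1.33 for erythroid genes, 2.55 against 0.41 for mesenchyme, 2.17 against 1.05 for megakaryocytes and -1.95 against -1.11 for endoderm. For endothelium these medians were 0.81 against 0.66, and for macrophages 0.52 against 0.26. The part of RNA quality, or of other cells in a capture, in these differences was not tested.

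**Figure D4:**
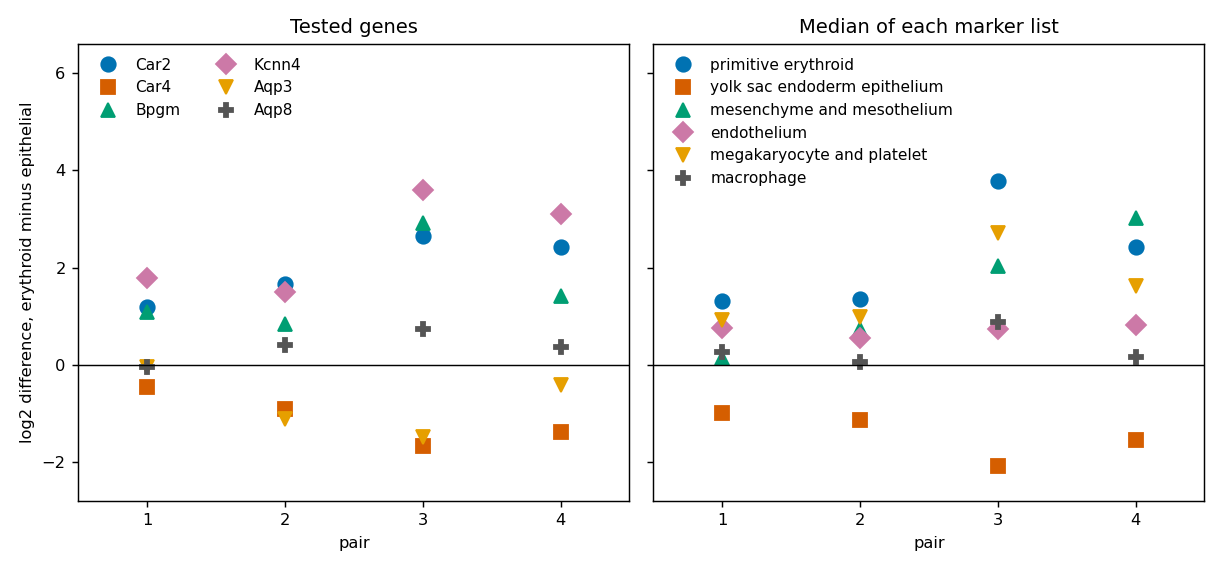
Log2 difference, erythroid minus epithelial, within each of the 4 pairs for the 6 tested genes (left) and for the median of each marker list (right). Kcnn4 is at 3.61 and 3.09 in pairs 3 and 4 and at 1.79 and 1.49 in pairs 1 and 2, and the erythroid markers are at 3.78 and 2.42 and at 1.31 and 1.36.

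Other members of the 2 families were mostly dim. Of 12 further carbonic anhydrases 3 were tested, and 2 of these fell and 0 rose, beside 8.87% and 6.02% of all genes tested. Car13, a cytosolic form, fell, at -1.92 ± 0.50 on the log2 scale (SE, n = 4 pairs; limma adjusted p = 0.0279) and averaged 103 for erythroid captures against 342 for epithelial ones. Its other tested probe set was at -0.66 ± 0.37 and was not called (adjusted p = 0.27). Car14, a membrane-spanning form, fell, at -1.89 ± 0.55 (adjusted p = 0.0449) and averaged 91.7 against 249. On both probe sets that fell the erythroid captures lay wholly below the epithelial ones, as for 6.48% of all probe sets tested.

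Neither call held under all alternatives. Without replicate 3 Car13 was at -1.16 (adjusted p = 0.0552) and Car14 at -1.09 (0.0921), without replicate 4 they were at -2.03 (0.0856) and -2.07 (0.116), and Car14 was also lost without replicate 2 (-2.06, adjusted p = 0.0754). Over all alternatives their adjusted p ran from 2.19e-05 to 0.157 and from 0.00231 to 0.19, with 6 of 16 giving no call for Car13 and 10 of 15 for Car14. For Car14 these included the deposited scaling (adjusted p = 0.0522), an offset of 1 (0.0602) and no filter (0.0736). In the erythroid capture of pair 3 both were below background, at 23.6 and 6.34. Car7, the third one tested, was at -0.26 ± 0.37 (adjusted p = 0.687). Of 6 further aquaporin-family genes with a probe set, only Aqp2 was tested, at -1.13 ± 0.63 (adjusted p = 0.267), and the other 5 were above background on no array, on the probe set each was read from.

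Of 19 tested genes for other ion, gas and solute transport, 3 rose and 5 fell, beside 6.02% and 8.87% of all genes tested. Their median was -0.17, beside -0.01 over all genes tested. The 3 that rose belong to the complex of the anion exchanger and the Rh proteins. Slc4a1 rose by 2.32 ± 0.34 (SE, n = 4 pairs; limma adjusted p = 0.00266) and Rhag, a channel for ammonia and perhaps carbon dioxide, by 2.16 ± 0.41 (adjusted p = 0.00726). The call of Rhag was lost without a variance trend (adjusted p = 0.0659) and was kept in the other 16 of 17 alternatives. Rhd, the Rh blood group protein, rose by 1.27 ± 0.38 (adjusted p = 0.0486), and its call was lost without replicate 2 (1.37, adjusted p = 0.0764), replicate 3 (0.86, adjusted p = 0.204) or replicate 4 (1.12, adjusted p = 0.206), within 5.81e-06 to 0.701 over 17 alternatives, of which 9 gave no call. Slc4a1 is also 1 of the erythroid markers.

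Slc26a6, an anion exchanger of epithelia that can move bicarbonate, was at -1.60 ± 0.32 (limma adjusted p = 0.00888) and the potassium-chloride cotransporter Slc12a7 at -1.48 ± 0.24 (0.00386). The monocarboxylate transporter Slc16a1 was at -1.27 ± 0.21 (0.0038), the sodium pump subunit Atp1b1 at -1.03 ± 0.21 (0.0089) and the brush border scaffold Slc9a3r1 at -1.0 ± 0.10 (0.00102). Slc12a7 had a second probe set at -1.02 ± 0.45 (adjusted p = 0.153), which was not called. Of 5 tested probe sets of Atp1b1, 3 were called and 2 were not, at -0.85 ± 0.30 (adjusted p = 0.0839) and -0.60 ± 0.35 (adjusted p = 0.281). Without a variance trend the calls of Slc26a6 (adjusted p = 0.0509), Slc16a1 (0.0585) and Atp1b1 (0.0696) were lost, and without x, s and a probe sets Atp1b1 was at -0.60 (0.292). Without replicate 4 the calls of Slc26a6 (-1.50, adjusted p = 0.0588) and Atp1b1 (-1.03, adjusted p = 0.0513) were lost, and over all alternatives their adjusted p ran from 2.22e-06 to 0.113 and from 1.32e-10 to 0.292. The smallest change of the list was that of the glucose transporter Slc2a1, at -0.17 ± 0.12 (adjusted p = 0.398), and in the list around Bpgm that of the aldolase Aldoa, at 0.06 ± 0.20 (adjusted p = 0.884).

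Genes with the most similar pattern were sought among the other 7190 tested genes by the root-mean-square distance between their 4 within-pair log2 differences. Closest to Car2 were Ell2 (0.07, log2), Nt5c3 (0.17) and Asns (0.26). Ell2 was at 1.10, 1.75, 2.73 and 2.40 in pairs 1 to 4 where Car2 was at 1.19, 1.66, 2.65 and 2.41. Closest to Kcnn4 were Slc4a1 (0.23), Tlcd4 (0.30) and Blvrb (0.34), and closest to Bpgm were Nmnat3 (0.25), Tspo (0.30) and Cavin2 (0.31). Closest to Car4 were Chchd10 (0.07), Gldc (0.09) and Slc25a10 (0.11). Slc4a1 was at 1.49, 1.16, 3.66 and 2.96 where Kcnn4 was at 1.79, 1.49, 3.61 and 3.09. The distances are a description only.

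**Figure D5:**
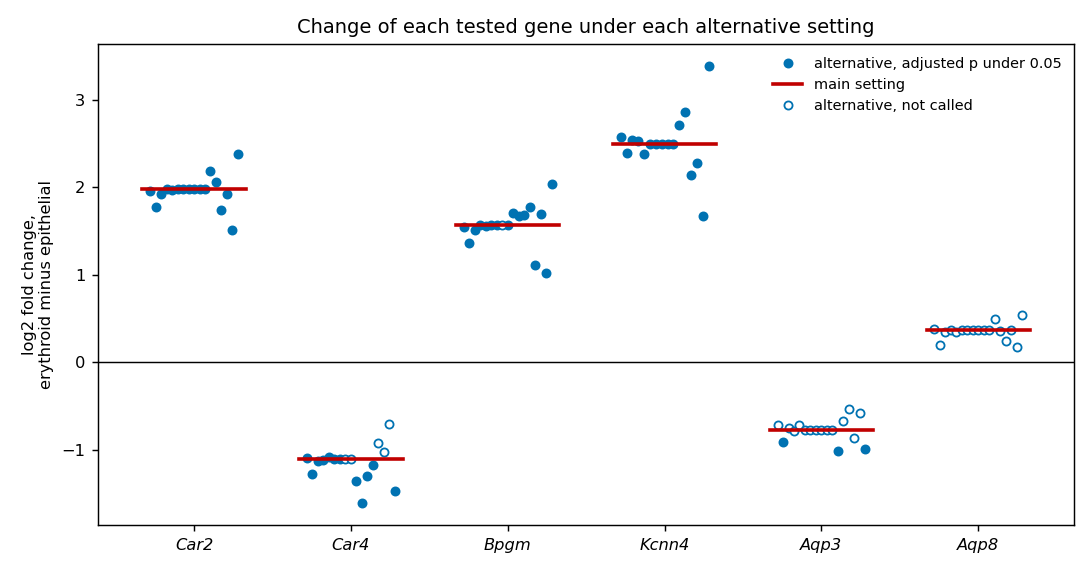
Log2 fold change of the 6 tested genes under the main setting (red line) and under each alternative (circles, filled where the adjusted p was under 0.05). Car2 and Kcnn4 were called under every alternative that gave a value, at 1.51 to 2.38 and 1.67 to 3.39, while Aqp8 was called under none.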

How the data were processed

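The authors deposited 1 intensity per probe set and array, the MAS5 signal on a linear scale, scaled by array, so that every array has a mean of 500 once its lowest and highest 2% of values are set aside. GCOS, MAS5 and affy are the tools in the submitters' processing notes, with versions not given in the sources used here. Older platform symbols were replaced by way of gene identifiers.

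For this comparison, 8.14 (the 10th percentile of all values) was added, log2 taken, and the 8 arrays quantile normalised, since their medians spanned 0.59. The fit used limma 3.58.1 in R 4.3.3 (lmFit, then eBayes allowing for a trend in the variance), with cell type and pair as terms, which leaves 3 residual degrees of freedom. All p-values are two-sided, adjusted by Benjamini-Hochberg over 11449 probe sets. Log2 changes are erythroid minus epithelial and come from normalised values, while signals are as deposited. Where a gene had several tested probe sets, the brightest on average stands for it.

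The pair comes from the labels' protocols. Deviations of paired samples from their group means correlated at 0.44, 0.34, 0.31 and 0.54. Samples of different pairs were not correlated in this way, so these values do not test the pairing. The number of arrays limits the precision. The genes, gene lists and markers were chosen with earlier results of these data known. Named genes are all 9 genes, up to 4 genes of each list with the largest changes and the 1 with the smallest, and the 3 most similar to each gene called. Rhd, Slc16a1, Atp1b1 and Slc9a3r1 were named after their values were seen. Alternatives covered scaling, offset, filter, variance trend, pair term, probe set, and samples left out. The low ends quoted for Car4, Bpgm, Aqp3, Hk1, Car13, Car14, Rhd, Slc26a6 and Atp1b1 came from pairs 3 and 4 alone. They rest on fewer arrays and are not stronger evidence than the main fit.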

Additional observations from a re-analysis of the deposited data

Results flagged for a closer look

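The rise of Car2 and that of Kcnn4 were larger in pairs 3 and 4 than in pairs 1 and 2. The differences were 1.11 and 1.71 on the log2 scale (limma adjusted p = 0.0364 and 0.0411). The Car2 call depended on quantile normalisation. Its difference was 0.85 on signals left as scaled by the authors, 0.78 after 75th percentile centring and 0.49 after median centring. None of these was called (limma adjusted p = 0.256, 0.422 and 0.683), while Kcnn4 kept its call in each. Fitting no variance trend ended both calls (limma adjusted p = 0.444 for Car2 and 0.372 for Kcnn4). Using no filter also ended both (limma adjusted p = 0.0542 for Car2 and 0.0594 for Kcnn4). The pairs were set apart by the 3′ to 5′ ratios of the array controls and not by a label of the study, and RNA quality and pair cannot be told apart.

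Of 32 groups of 4 arrays examined, 1 held a sample far from the other 3, where chance gives about 1 in 20. This was Aqp1 in the epithelial captures, where the gap of the capture of pair 2 to the next one was 0.836 of the whole range on the normalised log2 scale. Its deposited signal was 87.5 there and 5.55 to 9.62 in the other 3 epithelial captures, and all 4 values were below background.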

How the results depend on the processing

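The count of genes that rose was 2 or 3 of the 9 under all 17 alternatives, where 1.47% to 11.8% of all genes tested rose. The count that fell, 1 as reported, was 2 with arrays centred on their medians and in pairs 3 and 4 alone. It was 0 without a variance trend and in pairs 1 and 2 alone. Of all genes tested, 11.0% fell with median centring, 13.7% in pairs 3 and 4 alone and 5.29% in pairs 1 and 2 alone. The main fit gave 8.87%. The count that fell was also 0 without the replicate block, where Car4 kept its value of -1.11 and lost its call (limma adjusted p = 0.25). It was 0 to 2 when 1 replicate was left out. Without replicates 1, 2, 3 and 4 in turn, 8.03%, 8.26%, 4.68% and 3.42% of all genes tested fell. No other call among the 9 genes changed without the block. Among list genes calls were lost without it for Car13, Car14, Rhd, Slc16a1, Atp1b1 and Hk1, at adjusted p of 0.0666, 0.145, 0.171, 0.0942, 0.054 and 0.0666 without it. These list genes were run under the alternatives after the data were seen. The difference between pair sets for Aqp3, -0.36 as reported and never called, ran from -0.92 to 0.17 over its 13 alternatives, and turned to 0.16 and 0.17 without replicates 1 and 3. Kcnn4 had no value without x, s and a probe sets, since its tested probe set is of that kind. The pair-set difference was not run without the pair term, on means of probe sets or within 1 set. Car1, Car3 and Aqp1 could be fitted only with no filter, at 0.56, 0.42 and 0.56, with limma adjusted p of 0.733, 0.748 and 0.781. The Car3 value is from its brighter probe set, and the other one had a mean log2 difference of -1.40. The signals of Car1, Car3 and Aqp1, at or near background, limit what can be said of them. Median centring moved the median of all genes to -0.14, against -0.01 as reported. Without a variance trend, 1.47% of all genes rose and 3.42% fell, and without the replicate block 1.52% and 2.95%.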

Other observations

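Of the genes above, 4 lie side by side on chromosome 3. In the RefSeq table for GRCm38.p6 the protein-coding genes Car13, Car1, Car3 and Car2 follow each other there with none between them. In the captures, Car2 was the member of this cluster that rose, averaging 9672 for erythroid captures against 2309 for epithelial ones. Car13 fell on the probe set it was read from, averaging 103 against 342. Car1 averaged 51.9 in erythroid and 30.9 in epithelial captures and the brighter Car3 probe set 69.9 and 44.4, with 1 of their 16 values reaching the background level of its array. Whether any of these 4 genes differs from its neighbours was not tested.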
